A study of Mus musculus with 2 samples.

Results

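BMP and TGF-beta signalling genes were followed in cranial neural crest cells (CNCCs), the migratory cells that build most of the skeleton and connective tissue of the face, in control mouse embryos and in embryos whose neural crest had lost the transcription factor genes Tfap2a and Tfap2b. The list held 52 genes chosen by their place in the pathway, and each was found by its symbol among the 32285 genes of the count matrices. It comprised 14 ligands, 11 extracellular antagonists or modulators, 10 receptors, 8 Smads, 4 Id targets and 5 other inhibitors. Control embryos were Tfap2a wt/flox and Tfap2b wt/flox, and mutant embryos were Tfap2a flox/flox and Tfap2b flox/flox. All were r26 mTmG/mTmG, a reporter that turns on GFP after recombination, and all carried the Wnt1:CRE driver, so control cells had also lost 1 copy of each gene. Heads were collected at E11.5, GFP-positive cells were sorted, and 1 library of 2 pooled embryos was made per genotype. Wnt1:CRE also recombines in the dorsal brain, and the sorted cells therefore included brain cells.

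Bone morphogenetic proteins (BMPs) and transforming growth factor betas (TGF-betas) are secreted ligands that bring type I and type II receptors together. The receptors phosphorylate Smad1, Smad5 and Smad9 on the BMP side and Smad2 and Smad3 on the TGF-beta and activin side, and these enter the nucleus with Smad4. Antagonists such as Noggin and Chordin bind the ligands outside the cell, while Smad6, Smad7 and Bambi are inhibitors that the pathway itself switches on, as are the Id genes. In the facial prominences BMP ligands act on outgrowth, patterning and skeletal differentiation, and in the neural tube they act from the roof plate on dorsal cell identity.

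The control library kept 5625 cells and 82313680 UMIs (unique molecular identifiers, each standing for 1 captured transcript), with a median of 13478 UMIs per cell, and the mutant library kept 5587 cells and 77251738 UMIs, with a median of 12234. Only 6 cell barcodes were shared. Levels are counts per 1e+06 UMIs of the summed cells (CPM), and a log2 ratio is mutant over control, with a 95% interval that covers counting error only. With 1 library per genotype no test between genotypes was possible, and no p-value is given. Cells fell into a mesenchyme class (3756 control and 2808 mutant cells), a neuronal class of neurons and brain progenitors (1608 and 2578) and a glia class (261 and 201). Their own marker lists were all detected, at a summed 2236 and 2310 CPM for the 8 mesenchyme markers in mesenchyme. Tfap2a UMIs stood at 19.4 CPM in control and 13.4 in mutant mesenchyme and Tfap2b at 56.5 and 47.3. In glia Tfap2a was higher in the mutant library, at 78.1 and 119 CPM (log2 ratio 0.60, 0.40 to 0.81), and Tfap2b was at 234 and 194 CPM, and 3′ UMIs do not separate intact from recombined alleles. Xist was seen in 98.8% of control and 0.107% of mutant cells, so genotype and embryo sex cannot be told apart. Blood transcripts (7 haemoglobin and red cell genes) summed to 748 CPM over all control cells and 1.64 CPM over all mutant cells, and their part in any result was not tested.

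In the mesenchyme the median of the list was near 0, and a few ligands and antagonists stood apart. Of 52 genes, 48 had at least 100 UMIs over both libraries, and their median log2 ratio was -0.02, against 0.02 over all 12549 genes with that many UMIs. At 1.5-fold or more, 2 of the 48 were higher in the mutant library, Gdf10 and Tgfb1, where 3.08% of all genes were, and 1 was lower, Gdf6, where 1.05% of all genes were. At a log2 ratio of 0.32 or more in either direction, a looser threshold, 8 were higher (8.34% of all genes) and 2 lower (3.15% of all genes). The log2 ratio lay above 0 for 21 genes and below 0 for 27, whereas 56.5% of all genes lay above 0. The 4 genes under the minimum were Bmp3, Bmp6, Chrdl1 and Inhbb.

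**Figure D1:**
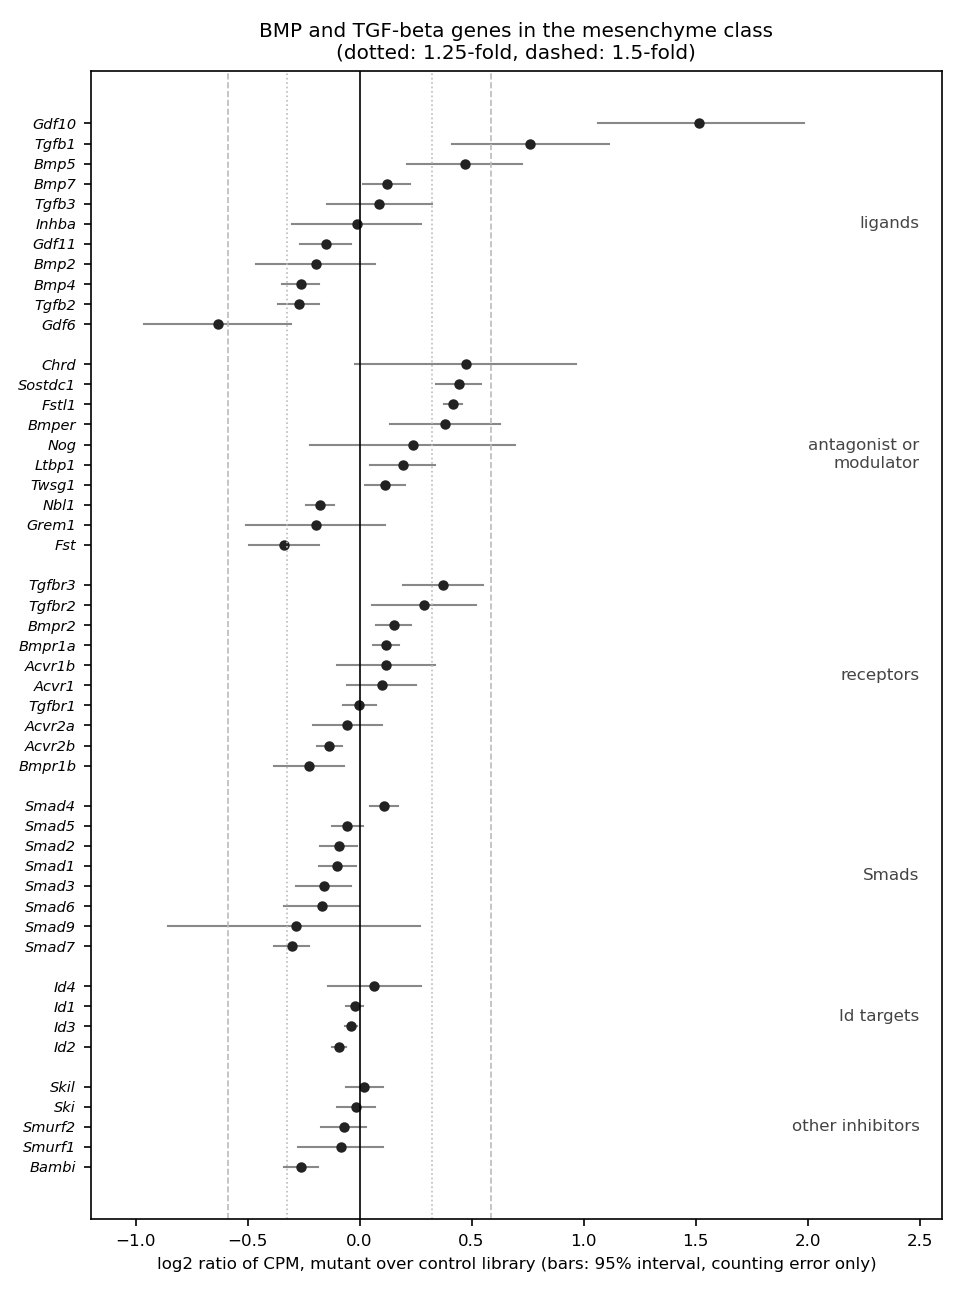
Log2 ratio of CPM, mutant over control, of the 48 genes with at least 100 UMIs in the mesenchyme, by role. Points are ratios of the summed cells of 1 library per genotype, bars are 95% intervals of counting error, dotted lines mark log2 ratios of 0.32 and dashed lines 1.5-fold; Gdf10 (1.52) and Gdf6 (-0.63) are the extremes, and the 4 Id genes lie between -0.09 and 0.07.

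Among the ligands, Gdf10, a BMP3-related factor that can signal through the TGF-beta branch, had the widest difference. It gave 60 UMIs (1.03 CPM) in control and 129 (2.95 CPM) in mutant mesenchyme, a log2 ratio of 1.52 (1.06 to 1.98). These UMIs were spread over 52 control and 101 mutant cells, so the gene was rare in both libraries. Tgfb1, the ligand best known from immune and vascular cells, had 124 UMIs (2.13 CPM) and 158 UMIs (3.61 CPM), a log2 ratio of 0.76 (0.41 to 1.11). Bmp5, which shapes the external ear and other cartilages, had 251 UMIs (4.31 CPM) and 261 UMIs (5.96 CPM), a log2 ratio of 0.47 (0.21 to 0.72). Gdf6, a BMP family ligand of joints, skull and eye, was lower, at 239 UMIs (4.10 CPM) in control and 116 UMIs (2.65 CPM) in mutant cells, a log2 ratio of -0.63 (-0.96 to -0.30). With the clusters of the class held at the same shares in both libraries, the Gdf6 ratio was -0.40 and no longer past 1.5-fold, and the Gdf10 and Tgfb1 ratios were 1.17 and 0.66. The remaining tested ligands lay closer together: Bmp2, Bmp4, Bmp7, Gdf11, Inhba, Tgfb2 and Tgfb3 had log2 ratios between -0.27 (Tgfb2) and 0.12 (Bmp7). Bmp3, an atypical BMP that opposes others, was under the minimum with 26 and 63 UMIs (0.446 and 1.44 CPM).

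Bmp4 and Tgfb2, the ligands with the most UMIs, differed more within regions of the mesenchyme than over the class. The class was split into 9 clusters without use of the 52 genes. They included a frontonasal-like cluster (led by Gata3, Pax3 and Pax7), a maxillary-like cluster (Lhx6, Lhx8), a mandibular-like cluster with Hand1 and Hand2 and a periocular-like cluster with Vtn and Zic1. No region is assigned here to a cluster led by Tfap2b and Crtac1 or to a cluster with Dlx3, Hoxa2 and Emx2. In the Dlx3/Hoxa2 cluster, labelled mandibular-like in the figures, the mandibular markers summed to 412 CPM in control and 307 CPM in mutant cells. Its second arch markers summed to 103 and 121 CPM, against 25.3 and 31.9 CPM over the mesenchyme. An unnamed cluster had Gpr50 and Foxf1, and another had Cyp26a1 and Hmx1. The last unnamed cluster, of 40 control and 78 mutant cells, most of them called doublets, is left out of the regional values.

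Bmp4, at chr14:46383520-46390669 on the minus strand (GRCm38), signals to mesenchyme and epithelium throughout the facial prominences. In control cells its level was highest in the frontonasal-like cluster (89.2 CPM), followed by the Hand1/Hand2 cluster (73.5 CPM) and the Vtn/Zic1 cluster (73.1 CPM), and lowest in the Dlx3/Hoxa2 cluster (8.77 CPM). It was lower in the mutant library in the Tfap2b/Crtac1 cluster (389 against 116 UMIs, 48.6 against 23.5 CPM, log2 ratio -1.05, -1.36 to -0.75). The same held in the Gpr50/Foxf1 cluster (246 against 69 UMIs, 47.7 against 21.4 CPM, log2 ratio -1.16, -1.56 to -0.77) and in the Cyp26a1/Hmx1 cluster (39.5 against 25.1 CPM, log2 ratio -0.66, -1.17 to -0.14). In the last of these 10 cells held 62.7% of the 67 control Bmp4 UMIs and 37.9% of the 66 mutant ones. In the 5 other clusters, including the cluster where it was highest, the interval held 0: the frontonasal-like level was 85.3 CPM in mutant cells (log2 ratio -0.06, -0.21 to 0.08) and the Hand1/Hand2 level 81.8 CPM (0.16, -0.07 to 0.38). The 3 clusters with less Bmp4 were therefore neither the cluster of highest nor that of lowest control level.

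Tgfb2, at chr1:186622792-186705989 on the minus strand, encodes the TGF-beta ligand most needed for the embryonic head and heart. Control levels were highest in the Vtn/Zic1 cluster (88.6 CPM), the Gpr50/Foxf1 cluster (85.6 CPM), the Cyp26a1/Hmx1 cluster (81.4 CPM) and the Hand1/Hand2 cluster (78.1 CPM), and lowest in the maxillary-like cluster (13.3 CPM). The mutant library was at least 1.5-fold lower in 4 clusters, in which 1.07% to 1.74% of all genes with 100 UMIs were. These were the Cyp26a1/Hmx1 cluster (33.0 CPM, log2 ratio -1.30, -1.70 to -0.90), the Gpr50/Foxf1 cluster (37.9 CPM, -1.18, -1.48 to -0.88), the Dlx3/Hoxa2 cluster (24.4 against 13.0 CPM, -0.91, -1.27 to -0.56) and the Hand1/Hand2 cluster (48.9 CPM, -0.68, -0.94 to -0.42). In the Cyp26a1/Hmx1 cluster 10 cells held 65.9% of the 138 control Tgfb2 UMIs and 43.7% of the 87 mutant ones, and 37 of 161 control and 50 of 266 mutant cells had any. The maxillary-like value was 9.18 CPM (-0.53, -0.93 to -0.14). In contrast, Tgfb2 was higher in the frontonasal-like cluster (35.9 against 51.8 CPM, 0.53, 0.32 to 0.74) and the Tfap2b/Crtac1 cluster (34.0 against 42.6 CPM, 0.32, 0.06 to 0.59), and the Vtn/Zic1 cluster stood at 90.8 CPM (0.04, -0.18 to 0.25). Both Bmp4 and Tgfb2 were lower in the Gpr50/Foxf1 and Cyp26a1/Hmx1 clusters, while in the Tfap2b/Crtac1 cluster Bmp4 was lower and Tgfb2 higher. In the Cyp26a1/Hmx1 cluster both differences rested on few control cells.

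Regional marker genes also differed between libraries inside these clusters. In the Tfap2b/Crtac1 cluster the 5 frontonasal markers summed to 673 CPM in control and 400 CPM in mutant cells, and the 7 blood genes to 1362 and 0.608 CPM. In the Cyp26a1/Hmx1 cluster the 4 second arch markers summed to 113 and 47.1 CPM, and in the Gpr50/Foxf1 cluster the 6 mandibular markers to 354 and 268 CPM. The part of these shifts in the Bmp4 and Tgfb2 values was not tested.

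**Figure D2:**
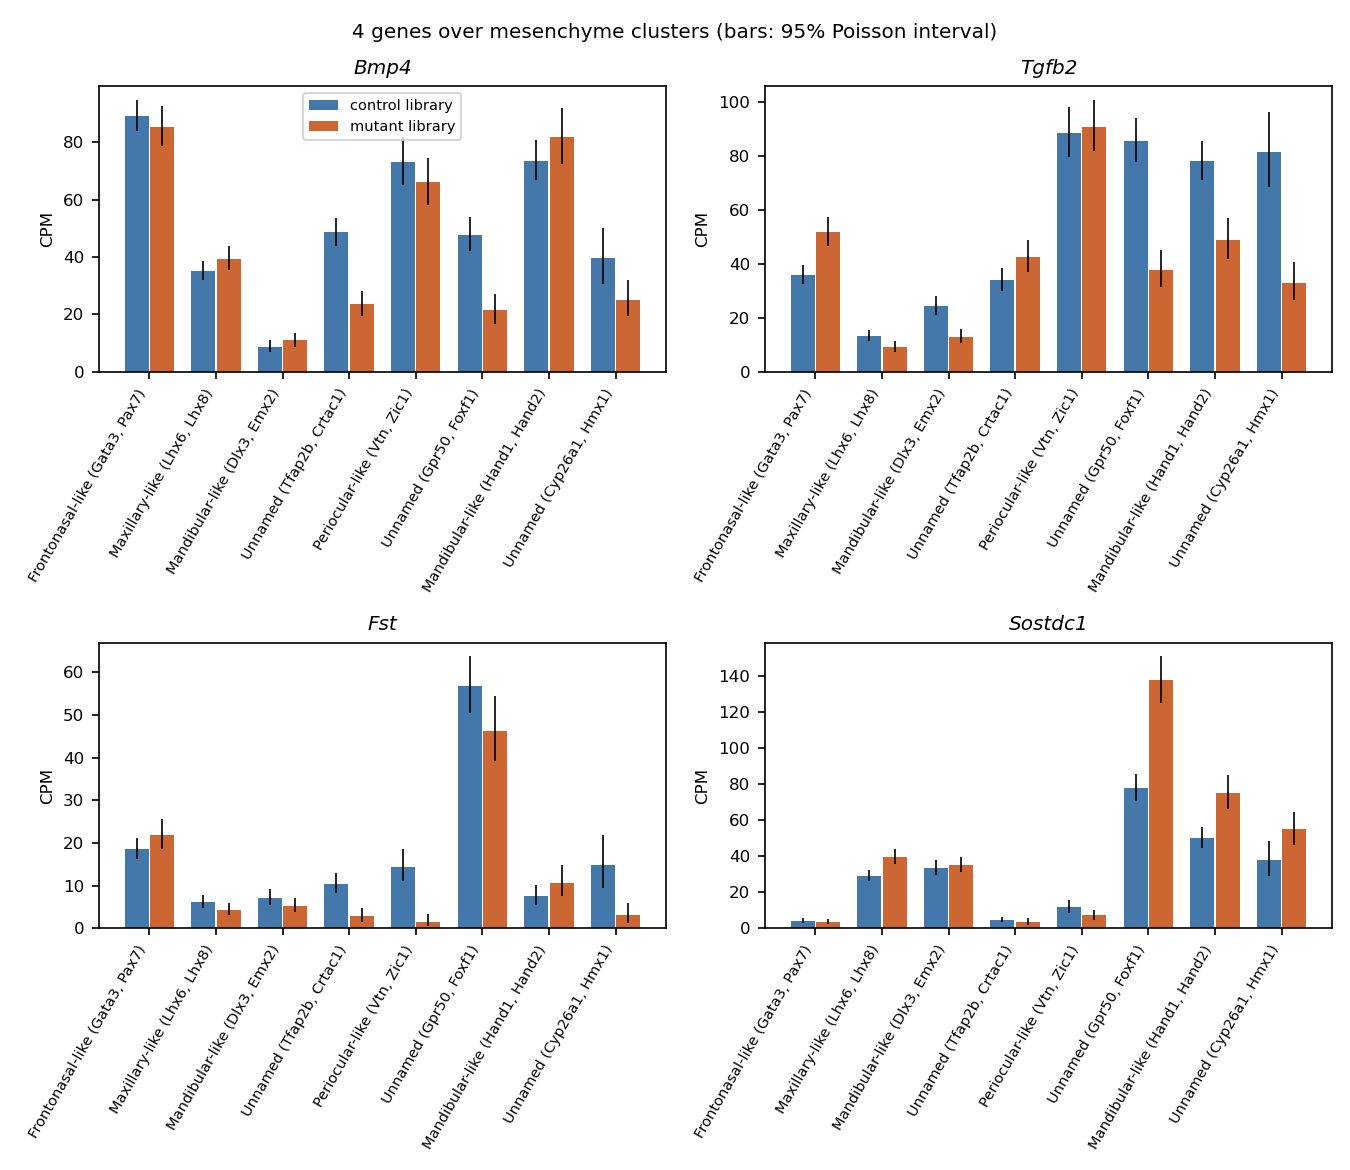
CPM of Bmp4, Tgfb2, Fst and Sostdc1 in the 8 mesenchyme clusters, control (blue) and mutant (orange) library, with 95% Poisson intervals of counting error and each axis from 0. Bmp4 is lower in the mutant library in the Tfap2b/Crtac1, Gpr50/Foxf1 and Cyp26a1/Hmx1 clusters, Tgfb2 in 5 clusters including the latter 2, and Sostdc1 is higher in the Gpr50/Foxf1 cluster (77.8 against 138 CPM).

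The start regions of Bmp4 and Tgfb2 are given here because both genes were lower in the same 2 clusters. Those of Id2, Id3 and Smad6 follow as examples, chosen after the values were seen, of the 6 target and feedback genes that shared their highest cluster in mutant cells. Each runs from 250 bases before to 50 bases after the transcription start in RefSeq (GRCm38.p6), 5′ to 3′ on the gene's strand, in the order chr14:46390620-46390919 (minus), chr1:186705940-186706239 (minus), chr12:25096043-25096342 (minus), chr4:136143572-136143871 (plus) and chr9:64022010-64022309 (minus). Capitals mark matches to the TFAP2 consensus GCCNNNGGC, the GC-rich Smad site GGCGCC or the Smad palindrome GTCTAGAC, each of which reads the same on both strands.
Bmp4: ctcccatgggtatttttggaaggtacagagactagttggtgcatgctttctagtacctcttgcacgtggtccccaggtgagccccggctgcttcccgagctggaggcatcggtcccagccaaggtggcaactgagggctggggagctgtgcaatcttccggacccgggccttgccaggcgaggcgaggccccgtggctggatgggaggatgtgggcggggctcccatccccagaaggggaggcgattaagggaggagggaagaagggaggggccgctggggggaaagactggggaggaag
Tgfb2: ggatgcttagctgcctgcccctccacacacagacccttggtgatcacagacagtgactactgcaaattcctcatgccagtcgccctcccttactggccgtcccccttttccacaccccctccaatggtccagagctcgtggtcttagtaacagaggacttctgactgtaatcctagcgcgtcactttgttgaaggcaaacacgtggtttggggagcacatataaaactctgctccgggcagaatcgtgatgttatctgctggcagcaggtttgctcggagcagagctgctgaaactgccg
Id2: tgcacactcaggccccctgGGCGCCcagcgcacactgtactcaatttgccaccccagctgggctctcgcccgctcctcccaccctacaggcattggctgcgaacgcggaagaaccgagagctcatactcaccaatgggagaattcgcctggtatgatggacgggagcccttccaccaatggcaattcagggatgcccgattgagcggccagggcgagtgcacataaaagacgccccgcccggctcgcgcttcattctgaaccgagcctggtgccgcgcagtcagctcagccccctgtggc
Id3: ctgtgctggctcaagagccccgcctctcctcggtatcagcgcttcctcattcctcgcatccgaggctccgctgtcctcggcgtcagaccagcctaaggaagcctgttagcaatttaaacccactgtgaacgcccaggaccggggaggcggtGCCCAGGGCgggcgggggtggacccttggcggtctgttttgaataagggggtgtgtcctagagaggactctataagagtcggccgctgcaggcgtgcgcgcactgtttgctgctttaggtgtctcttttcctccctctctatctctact
Smad6: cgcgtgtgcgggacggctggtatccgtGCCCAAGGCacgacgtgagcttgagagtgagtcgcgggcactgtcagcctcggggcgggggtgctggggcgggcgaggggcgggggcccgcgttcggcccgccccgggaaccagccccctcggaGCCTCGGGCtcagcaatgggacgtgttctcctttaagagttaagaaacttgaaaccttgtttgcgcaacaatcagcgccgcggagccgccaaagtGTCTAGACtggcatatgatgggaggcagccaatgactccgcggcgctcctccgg
The Bmp4 and Tgfb2 windows held none of the 3 motifs. The Id3 window held 1 TFAP2 match, the Smad6 window 2 TFAP2 matches and the Smad palindrome, and the Id2 window 1 GGCGCC. Of all 32851 windows of this length, 16.6% held GCCNNNGGC, 11.9% GGCGCC and 0.213% GTCTAGAC. Among them were entries for 36 of the 52 genes, with 42 windows, of which 12, 15 and 1 held these motifs.

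Of the 11 extracellular antagonists and modulators, 10 had 100 UMIs in mesenchyme, and their median log2 ratio was 0.22. Fstl1, a secreted follistatin-like glycoprotein, was higher in the mutant library in each of the 8 clusters. It had 10460 UMIs (180 CPM) in control and 10495 UMIs (240 CPM) in mutant cells, a log2 ratio of 0.42 (0.38 to 0.46). In all 8 clusters the interval lay above 0, from 0.21 in the maxillary-like cluster to 0.55 in the Tfap2b/Crtac1 cluster, where the level was 161 against 236 CPM. Among the listed genes with 100 UMIs in all 8 clusters, Fstl1 was the only 1 with its interval on the same side of 0 in each. Its counts were high, which narrows the intervals, and the share of all genes that meet this rule was not computed.

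Sostdc1, a BMP and Wnt antagonist that limits tooth number, had 1550 UMIs (26.6 CPM) and 1582 UMIs (36.2 CPM) in mesenchyme, a log2 ratio of 0.44 (0.34 to 0.54). Its control level was highest in the Gpr50/Foxf1 cluster, where it was 77.8 CPM against 138 CPM in mutant cells (0.82, 0.62 to 1.02). It was also higher in the Hand1/Hand2 cluster (50.1 against 75.0 CPM, 0.58, 0.34 to 0.83), the Cyp26a1/Hmx1 cluster (37.8 against 55.1 CPM, 0.54, 0.11 to 0.99) and the maxillary-like cluster (29.3 against 39.7 CPM, 0.44, 0.22 to 0.65). In the frontonasal-like cluster it was at 4.31 and 3.42 CPM. The Dlx3/Hoxa2 cluster stood at 33.5 and 35.1 CPM (0.07, -0.18 to 0.32), and the Vtn/Zic1 cluster was lower in the mutant library (48 against 28 UMIs, 11.8 against 7.16 CPM, -0.72, -1.44 to -0.02). In the 5 clusters in which the gene had 100 UMIs, its ratio thus lay above 0 in all 5 and its interval in 4. In the Cyp26a1/Hmx1 cluster 10 cells held 84.4% of the 64 control and 65.5% of the 145 mutant Sostdc1 UMIs. In the Vtn/Zic1 cluster 10 cells held 95.8% of the control and 92.9% of the mutant ones.

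Fst encodes follistatin, which binds activins and, more weakly, BMPs, and it was 1 of the 2 genes lower past the looser threshold (888 against 528 UMIs, 15.2 against 12.1 CPM, log2 ratio -0.34, -0.50 to -0.18). Its main site, the Gpr50/Foxf1 cluster, stood at 56.9 CPM in control and 46.3 CPM in mutant cells (-0.30, -0.59 to -0.01). The widest differences lay in clusters with fewer than 100 UMIs of the gene. The Vtn/Zic1 cluster held 59 against 6 UMIs (14.5 against 1.54 CPM, -3.24, -4.74 to -2.03), the Tfap2b/Crtac1 cluster 84 against 14 UMIs (10.5 against 2.84 CPM, -1.89, -2.82 to -1.06) and the Cyp26a1/Hmx1 cluster 25 against 8 UMIs (14.7 against 3.04 CPM, -2.28, -3.64 to -1.09). Those Fst UMIs came from few cells, with 64.4% of the control UMIs of the Vtn/Zic1 cluster in 10 cells. Exons of Fst overlap Gm47040 on the opposite strand, which had 26 and 4 UMIs over all cells.

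Chrd, which encodes Chordin, gave 70 UMIs (1.20 CPM) and 73 UMIs (1.67 CPM), and its log2 ratio of 0.47 had an interval that held 0 (-0.02 to 0.97). Bmper, a Chordin-like BMP modulator of vessels and cartilage, had 279 UMIs (4.79 CPM) and 273 UMIs (6.24 CPM), a log2 ratio of 0.38 (0.14 to 0.63). Its control level was highest in the Dlx3/Hoxa2 cluster at 19.0 CPM, where the mutant level was 18.9 CPM, and the other cluster with 100 UMIs, the frontonasal-like one, was past 1.5-fold (5.86 against 9.28 CPM, 0.66, 0.15 to 1.17). Grem1, which encodes the BMP antagonist Gremlin, differed by region in opposite directions. The frontonasal-like cluster had 84 against 31 UMIs (7.24 against 4.42 CPM, -0.71, -1.35 to -0.10), the Gpr50/Foxf1 cluster 32 against 1 UMI, and the Dlx3/Hoxa2 cluster, with fewer than 100 UMIs, 20 against 64 (2.40 against 8.39 CPM, 1.80, 1.06 to 2.61). Nbl1, a DAN family BMP antagonist, was, like Bmp4, highest in the frontonasal-like (178 CPM) and Hand1/Hand2 (131 CPM) control clusters, with 187 and 145 CPM in mutant cells. It was lower in the Dlx3/Hoxa2 cluster (45.0 against 27.0 CPM, -0.74, -0.99 to -0.49). Nog, Twsg1 and Ltbp1 had log2 ratios between 0.11 and 0.24 in mesenchyme. Noggin was sparse there, with 88 and 78 UMIs.

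Most target and feedback genes had the same highest region, and their lowest region varied. The Id genes encode helix-loop-helix proteins that bind and block other transcription factors, and Id1, Id2 and Id3 are among the most direct BMP responses known. In control cells Id1, Id2, Id3, Id4, Smad7 and Bambi, 6 of the 7 genes that comprise the Id genes, Smad6, Smad7 and Bambi, were highest in the frontonasal-like cluster, the cluster with the most Bmp4. Id1 stood there at 420 CPM, Id2 at 640 CPM, Id3 at 828 CPM, Smad7 at 113 CPM and Bambi at 126 CPM. The Hand1/Hand2 cluster was second for Id1 (266 CPM), Id2 (451 CPM), Smad7 (67.2 CPM) and Bambi (117 CPM). The Dlx3/Hoxa2 cluster, which had the least Bmp4, was the lowest for Id1 (83.4 CPM), Id3 (262 CPM), Id4 (2.40 CPM) and Bambi (24.9 CPM). Id2 (130 CPM) and Smad7 (27.7 CPM) were instead lowest in the Vtn/Zic1 cluster, where Bmp4 was nearly as high as in the Hand1/Hand2 cluster. Smad6 had 21.7 CPM in the Gpr50/Foxf1 cluster next to 21.4 CPM in the frontonasal-like cluster, 2 values within counting error of each other. These levels compare 8 groups of cells captured in 1 library. Their depth differed, with median UMIs per control cell from 10366 in the Cyp26a1/Hmx1 cluster to 17723 in the maxillary-like cluster.

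**Figure D3:**
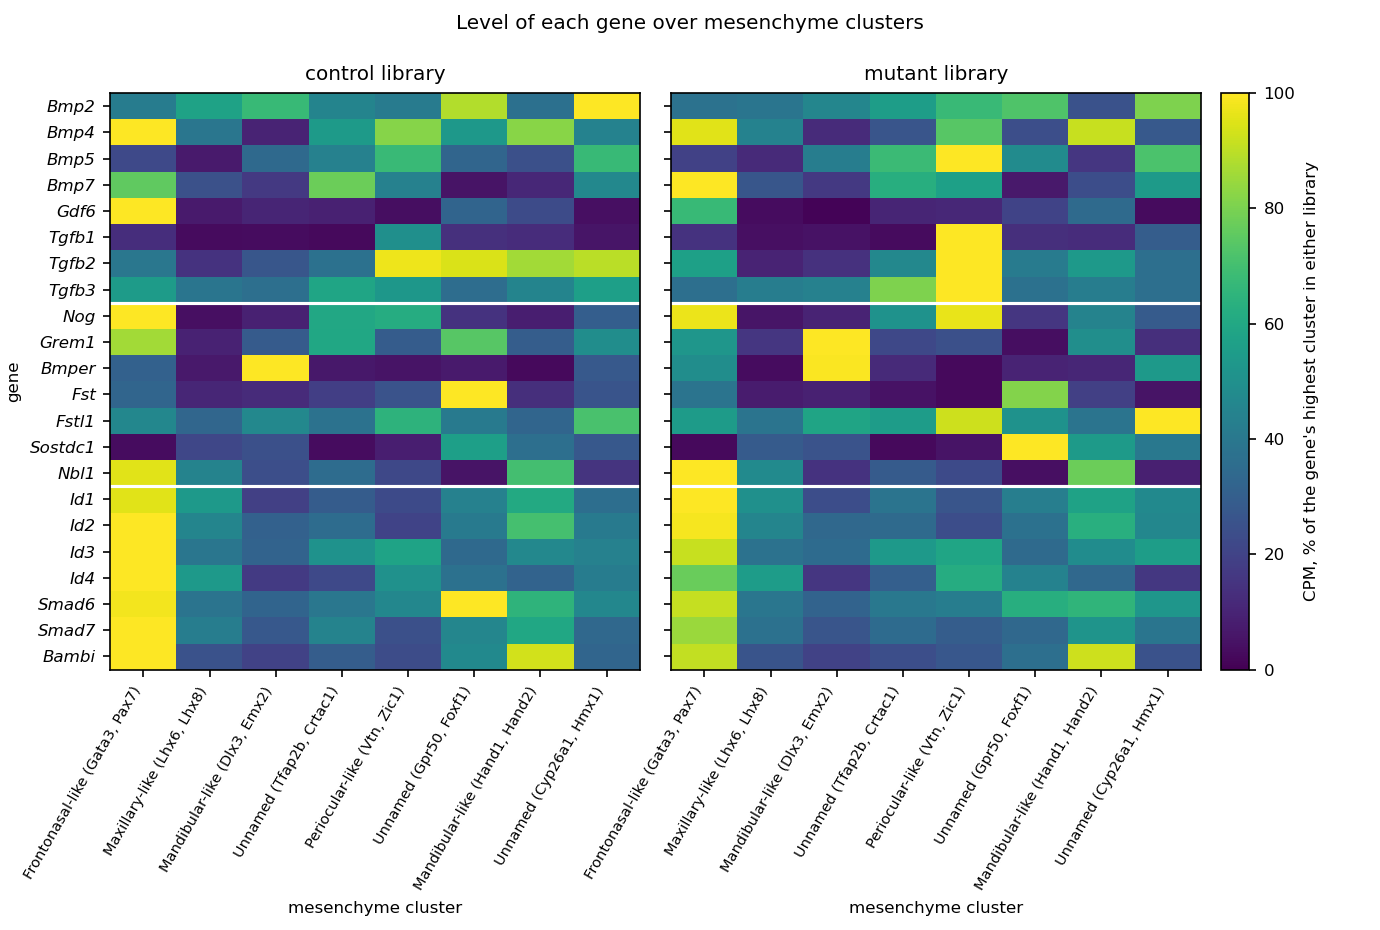
Level of 22 of the genes in 8 mesenchyme clusters, control library at left and mutant library at right, as CPM in percent of the highest cluster of that gene in either library. White lines separate ligands, antagonists, and target or feedback genes; the first column, the frontonasal-like cluster, is the brightest for Id1, Id2, Id3 and Smad7 in both libraries, and Bmp4 and Tgfb2 darken in the Gpr50/Foxf1 column of the mutant library.

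Over the whole mesenchyme the Id genes had ratios near 0. Id1 was at 222 and 219 CPM (log2 ratio -0.02, -0.06 to 0.02), Id2 at 341 and 320 CPM (-0.09, -0.12 to -0.06), Id3 at 445 and 433 CPM (-0.04, -0.07 to -0.01) and Id4 at 7.55 and 7.91 CPM (0.07, -0.14 to 0.27). No Id gene reached 1.5-fold in any of the 8 clusters among those with 100 UMIs. Few genes of any kind did: per cluster 0.860% to 3.58% of all genes with 100 UMIs were higher and 0.734% to 1.85% lower. The widest Id ratio with 100 UMIs was that of Id1 in the Tfap2b/Crtac1 cluster, at 128 against 169 CPM (0.41, 0.28 to 0.54). Next was Id1 in the Cyp26a1/Hmx1 cluster, at 158 against 209 CPM (0.40, 0.19 to 0.62). In both of those clusters Id1 was higher in the mutant library while Bmp4 was lower. In the Tfap2b/Crtac1 cluster 10 cells held 14.2% of the 1020 control and 24.4% of the 836 mutant Id1 UMIs. There 311 of 481 control and 193 of 293 mutant cells had any. In the Cyp26a1/Hmx1 cluster 10 cells held 31.7% of the 268 control and 23.0% of the 549 mutant ones.

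Smad7, an inhibitory Smad that blocks both branches of the pathway, was at 59.7 and 48.4 CPM (-0.30, -0.38 to -0.22), and Bambi, a pseudoreceptor that lacks a kinase domain, at 61.8 and 51.5 CPM (-0.26, -0.34 to -0.19). With fixed cluster shares the Smad7 ratio was -0.21 and the Bambi ratio -0.11. Smad6, the inhibitory Smad of the BMP branch, was at 12.8 and 11.4 CPM (-0.17, -0.34 to -0.00), and it passed 1.5-fold in the Gpr50/Foxf1 cluster alone (21.7 against 13.7 CPM, -0.67, -1.21 to -0.15), where Smad7 (51.6 against 38.2 CPM) and Bambi (59.6 against 46.0 CPM) were lower as well. The Gpr50/Foxf1 cluster thus combined lower Bmp4, Tgfb2, Smad6, Smad7 and Bambi with higher Sostdc1 in the mutant library. Id1 in that cluster was at 193 and 188 CPM (-0.04, -0.19 to 0.11).

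Over the whole mesenchyme, receptors and signal-carrying Smads were mostly close between libraries. All 10 receptor genes had 100 UMIs in mesenchyme, and 1, Tgfbr3, was past the looser threshold. Tgfbr3, the betaglycan co-receptor that presents TGF-beta2, had 527 UMIs (9.05 CPM) and 513 UMIs (11.7 CPM), a log2 ratio of 0.37 (0.20 to 0.55). It was past 1.5-fold in the Dlx3/Hoxa2 cluster (9.61 against 16.9 CPM, 0.82, 0.40 to 1.24) and the Vtn/Zic1 cluster (18.4 against 29.7 CPM, 0.69, 0.26 to 1.13). The Dlx3/Hoxa2 cluster therefore had more of the co-receptor and less of its ligand Tgfb2.

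The Vtn/Zic1 cluster was the one cluster with 100 UMIs of Tgfb1. Tgfb1 was at 10.3 CPM in control and 20.7 CPM in mutant cells (42 against 81 UMIs, 1.01, 0.45 to 1.58). The UMIs came from 18 control and 34 mutant cells, with 78.6% and 54.3% of them in 10 cells. Acvr1, a type I BMP receptor, was higher in the same cluster (12.3 against 18.4 CPM, 0.59, 0.05 to 1.14), and Acvr2b, a type II activin receptor, lower (100 against 65.0 CPM, -0.62, -0.86 to -0.39). Bmp5 in that cluster was at 10.1 and 14.8 CPM, and it passed 1.5-fold with 100 UMIs in the Tfap2b/Crtac1 cluster (6.50 against 10.1 CPM, 0.64, 0.05 to 1.23). The 8 mural markers of the Vtn/Zic1 cluster, genes of pericytes and other vessel-wall cells, summed to 293 CPM in control and 405 CPM in mutant cells. The 5 muscle markers there summed to 2.45 and 39.1 CPM and the 6 epithelial markers to 15.5 and 25.3 CPM, and the part of these lists in the Tgfb1 value was not tested.

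Bmpr1b, the type I receptor of limb and facial cartilage condensations, was at 14.8 and 12.7 CPM in mesenchyme (-0.22, -0.38 to -0.07). It was lower in all 4 clusters with 100 UMIs of it (log2 ratios -0.54 to -0.10), with the interval below 0 in 1. In the Hand1/Hand2 cluster, with fewer than 100 UMIs, it had 67 UMIs in 52 of 368 control cells. There 10 of 185 mutant cells held 12 UMIs. Tgfbr2, the type II TGF-beta receptor, was at 5.53 and 6.74 CPM in mesenchyme (0.29, 0.05 to 0.52). The 6 further receptor genes (Tgfbr1, Bmpr1a, Bmpr2, Acvr1b, Acvr2a and Acvr1) had log2 ratios between -0.05 and 0.15, with Acvr2b at -0.13. Smad1, Smad2, Smad3, Smad4, Smad5 and Smad9 lay between -0.29 (Smad9, with 73 and 45 UMIs) and 0.11 (Smad4). The inhibitors Smurf1, Smurf2, Ski and Skil lay between -0.08 and 0.02. Bmp7, a BMP ligand of frontonasal and eye mesenchyme, was at 28.6 and 31.2 CPM over the class, and passed 1.5-fold in the Hand1/Hand2 cluster (8.13 against 16.9 CPM, 1.06, 0.48 to 1.64). Tgfb3, which is needed for palate fusion, passed it in the frontonasal-like cluster (6.90 against 4.57 CPM), with an interval that held 0 (-0.59, -1.23 to 0.01).

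Other genes of the pathway came from a list of 79 genes, of which 46 had 100 UMIs in mesenchyme. At 1.5-fold 5 were higher in the mutant library and 0 lower (3.08% and 1.05% of all genes), and at the looser threshold 10 were higher and 3 lower (8.34% and 3.15% of all genes), with a median log2 ratio of 0.14. The 5 were the TGF-beta co-receptor Eng (1.96 against 3.22 CPM, 0.72), the type I receptor Acvrl1 (3.79 against 5.96 CPM, 0.65), the BMP co-receptor Rgmb (20.2 against 30.6 CPM, 0.60), the TGF-beta-binding proteoglycan Dcn (4.60 against 8.43 CPM, 0.87) and the cell cycle inhibitor Cdkn1a (1.22 against 2.77 CPM, 1.18). Eng and Acvrl1 are best known from endothelium, whose 6 markers summed to 3.97 and 4.18 CPM in mesenchyme. Fbn2, a fibrillin that binds latent ligands in the matrix, was at 162 and 240 CPM (0.57). The homeobox genes Msx1 and Msx2, which respond to BMP in facial mesenchyme, were lower, at 423 against 317 CPM (-0.42) and 58.2 against 39.5 CPM (-0.56). They belong to 10 genes listed as frequent responders, of which 9 had 100 UMIs, and the other 7 lay above 0, with a median over the 9 of 0.18. Past the looser threshold 4 of the 9 were higher and 2 lower. Of the 10 stress genes, 6 had 100 UMIs, and 1 was at least 1.5-fold higher.

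In the neuronal class 40 of the 52 genes had 100 UMIs, with a median log2 ratio of -0.03. At 1.5-fold 2 were higher in the mutant library, Sostdc1 and Chrdl1, against 1.4% of all 12173 genes, and 1 was lower, Bmp6, against 1.15%. Of the 79 other pathway genes, 40 had 100 UMIs and 0 passed 1.5-fold in either direction. Sostdc1 had 38 UMIs (2.00 CPM) in control and 156 UMIs (5.16 CPM) in mutant cells (1.37, 0.85 to 1.92). Chrdl1, a Chordin-like antagonist on the X chromosome, had 55 UMIs (2.90 CPM) and 154 UMIs (5.10 CPM) (0.81, 0.36 to 1.29). Bmp6, a BMP ligand of the dorsal neural tube, had 92 UMIs (4.85 CPM) and 74 UMIs (2.45 CPM) (-0.99, -1.45 to -0.53). Exons of Bmp6 overlap Txndc5 on the opposite strand, which had 5257 and 5109 UMIs over all cells. Chrd was at 3.79 and 2.55 CPM (-0.57, -1.06 to -0.09).

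Bmp4, Bmp6 and Bmp7 had their highest neuronal level in the roof plate-like cluster, 45 control and 83 mutant cells led by Ttr and Clic6, which belong to the choroid plexus. In control cells it had the highest level of Bmp4 (65.7 CPM), Bmp6 (69.0 CPM), Bmp7 (52.5 CPM), Nog (62.4 CPM) and Bambi (192 CPM) of the 9 clusters described. In the Ano1/Wnt7a cluster, the most numerous, Bmp4 was at 0.499 CPM, a level at which free RNA cannot be told from expression. In mutant roof plate-like cells Bmp4 was at 39.5 CPM (-0.73, -1.38 to -0.08), Bmp6 at 39.5 CPM (-0.80, -1.44 to -0.16), Bmp7 at 75.6 CPM (0.52, -0.08 to 1.16), Nog at 73.8 CPM and Bambi at 207 CPM. Most UMIs of these ligands lay in other clusters, since this one was small: it held 40 of 95 control Bmp4 UMIs, 42 of 92 of Bmp6 and 32 of 258 of Bmp7. The Bmp4 counts were small, 40 and 45 UMIs, and 97.5% of the control UMIs lay in 10 cells.

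The Sostdc1 difference of the class lay in the same cluster, at 13 UMIs (21.3 CPM) in control and 94 UMIs (82.6 CPM) in mutant cells (1.95, 1.11 to 2.91). The 8 roof plate markers, Ttr among them, summed there to 1916 CPM in control and 8136 CPM in mutant cells. The part of this in the values given for that cluster, those of Sostdc1, Bmp4, Bmp6 and Id3 among them, was not tested. The remaining Sostdc1 UMIs lay mostly in the neuronal cluster that held mesenchyme genes, where doublet calls made up 41.7% of the control cells and 56.9% of the mutant cells (21 and 55 UMIs). Chrdl1 was spread more widely, with 15 against 50 UMIs in the excitatory-like cluster (6.89 against 14.5 CPM, 1.08, 0.22 to 2.02) and 20 against 38 in the rhombic lip-like cluster.

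**Figure D4:**
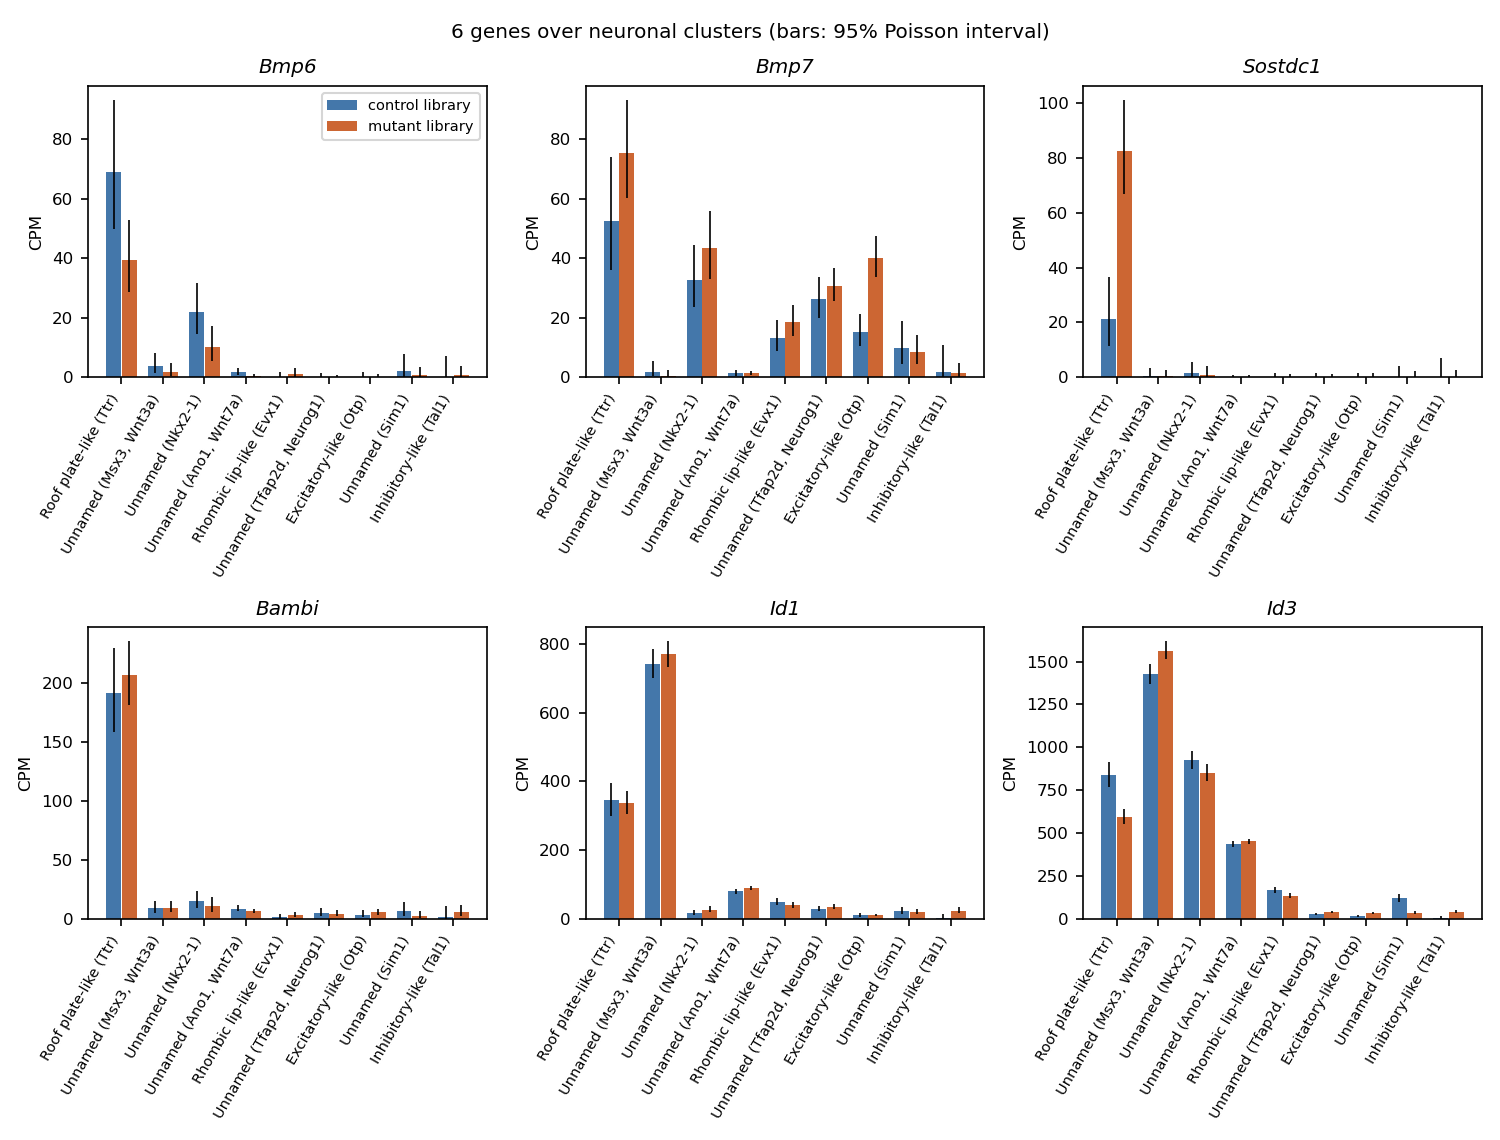
CPM of Bmp6, Bmp7, Sostdc1, Bambi, Id1 and Id3 in 9 neuronal clusters, control (blue) and mutant (orange) library, with 95% Poisson intervals of counting error and each axis from 0. Bmp6, Sostdc1 and Bambi are highest in the roof plate-like cluster, and Id1 and Id3 in the Msx3/Wnt3a cluster (741 against 770 CPM and 1429 against 1564 CPM).

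The highest Id1 and Id3 levels of all clusters were not where Bmp4, Bmp6 and Bmp7 were highest in the neuronal class. They were in an unnamed cluster led by Msx3, Wnt3a and Olig3, genes of the dorsal neural tube next to the roof plate. It contained 136 control and 180 mutant cells. Id1 was at 741 and 770 CPM there (0.05, -0.05 to 0.16) and Id3 at 1429 and 1564 CPM (0.13, 0.05 to 0.21), while Bmp4 had 3 and 0 UMIs. Gdf10 was also found there (26 and 32 UMIs, 16.2 and 14.7 CPM), as was Bmpr1b (28.7 and 28.9 CPM). Id1 itself and Gdf10 were among the leading genes that described this cluster, although they did not enter the clustering.

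In the roof plate-like cluster Id3 was lower in the mutant library (839 against 595 CPM, -0.50, -0.66 to -0.33), and Id1 stood at 345 and 336 CPM. Id4, which favours neural progenitor growth and was the 1 Id gene whose control level was highest in the neuronal class, was at 86.0 and 98.1 CPM over the class (0.19, 0.10 to 0.28). Its highest cluster was the inhibitory-like cluster, at 344 and 468 CPM (0.44, 0.20 to 0.69). In the cluster led by Nkx2-1, a gene of the ventral forebrain, Id3 was at 926 and 852 CPM and Fst at 113 and 37.5 CPM (144 against 51 UMIs, -1.59, -2.08 to -1.12), with 71.5% of the control Fst UMIs in 10 cells. Id3 was lower in the Sim1 cluster (111 against 57 UMIs, 123 against 36.9 CPM, -1.73, -2.22 to -1.26), where 87.4% of the control UMIs lay in 10 cells. Bmp7 was higher in the excitatory-like cluster (33 against 138 UMIs, 15.2 against 40.1 CPM, 1.40, 0.85 to 2.00), with 78.8% of the control and 44.2% of the mutant UMIs in 10 cells. There the rhombic lip markers summed to 186 and 355 CPM, the inhibitory to 114 and 196 CPM and the sensory to 881 and 545 CPM, and their part in the Bmp7 value was not tested.

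In the glia class, Sox10-positive cells of the Schwann and satellite lineage, 25 of the 52 genes had 100 UMIs. At 1.5-fold 5 were higher in the mutant library, against 6.3% of all 8063 genes, and 0 were lower, against 4.86%. They were Fst (45 against 65 UMIs, 8.85 against 19.9 CPM, 1.17, 0.60 to 1.75), Id2 (211 against 412 CPM, 0.96, 0.85 to 1.08), Bambi (13.2 against 24.2 CPM, 0.87, 0.39 to 1.37), Smad7 (23.2 against 42.2 CPM, 0.86, 0.50 to 1.23) and Fstl1 (72.6 against 121 CPM, 0.74, 0.53 to 0.95). Of the Fst UMIs, 66.7% in control and 75.4% in mutant cells lay in 10 cells. Id3 was at 434 and 626 CPM (0.53, 0.44 to 0.62) and Id1 at 106 and 121 CPM (0.20, 0.01 to 0.39). Of the 10 stress genes, 3 had 100 UMIs in glia. Jun was at 129 and 241 CPM (0.90, 0.75 to 1.05), and the 2 others lay below 0. The part of such a response in the glia values was not tested.

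The make-up of this class differed between libraries. The 7 neuron markers summed to 2170 CPM in control and 349 CPM in mutant glia, the 7 sensory neuron markers to 1317 and 229 CPM, and the 7 glia markers to 635 and 1020 CPM. Cells with more glial than neuronal marker UMIs were 162 of 261 in control and 189 of 201 in mutant glia, and in them the glia markers summed to 994 and 1076 CPM. Among these cells Id3 was at 663 and 665 CPM (0.00, -0.08 to 0.09), and Id2 at 292 and 434 CPM (0.57, 0.45 to 0.69). Smad7 was at 27.0 and 43.3 CPM (0.68, 0.28 to 1.09), Fst at 12.7 and 21.5 CPM (0.76, 0.17 to 1.37), Fstl1 at 94.0 and 127 CPM (0.43, 0.21 to 0.66) and Bambi at 18.7 and 25.1 CPM (0.42, -0.09 to 0.94). In these cells Smad7 and Fst, of the 5 genes, were past 1.5-fold. The 5 had been picked by their ratios in the full class, and the share of all genes past 1.5-fold in these cells was not computed.

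**Figure D5:**
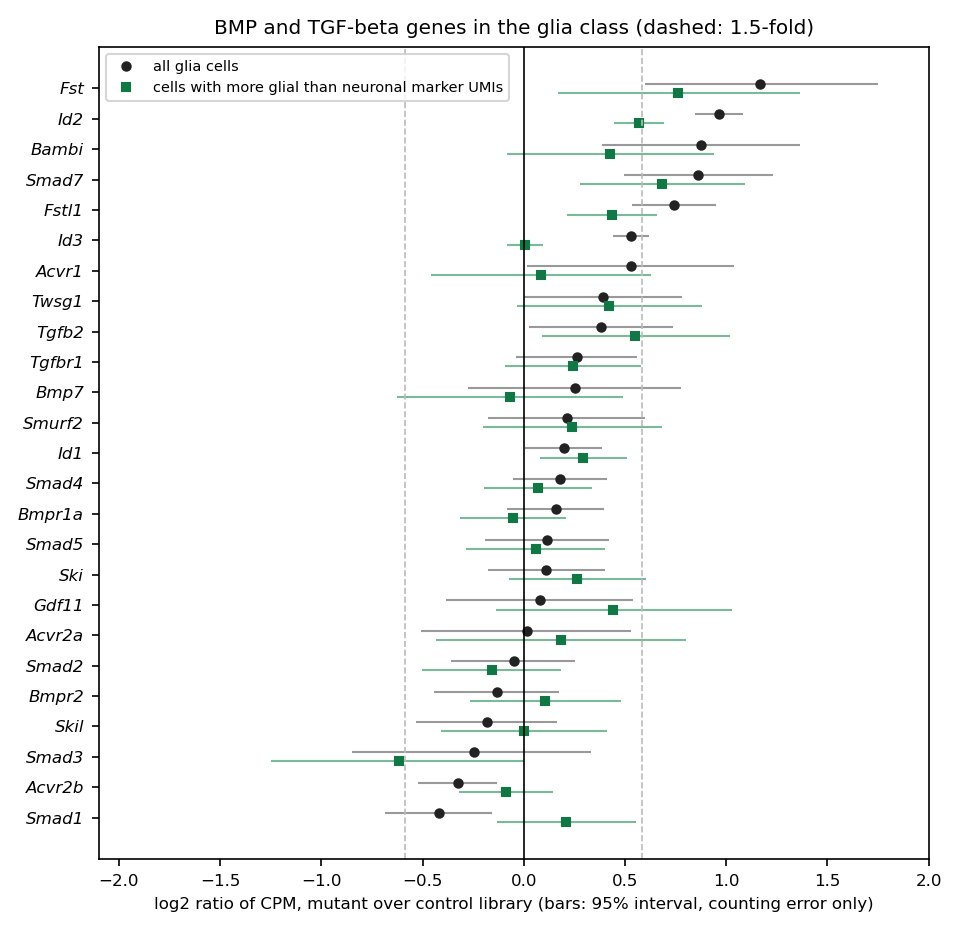
Log2 ratio of CPM, mutant over control, of the 25 genes with 100 UMIs in the glia class, over all glia cells (black circles) and over cells with more glial than neuronal marker UMIs (green squares), with 95% intervals of counting error. Id3 moves from 0.53 to 0.00 and Id2 from 0.96 to 0.57 between the 2 sets, and dashed lines mark 1.5-fold.

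The classes differed in which genes they used. In control cells Gdf6, Sostdc1, Nbl1, Bmp4, Bmp2 and Inhba were highest in mesenchyme. In their lowest class Gdf6 had 1 UMI, Bmp2 2, Inhba 5, Sostdc1 6, Bmp4 16 and Nbl1 27, counts at which free RNA cannot be told from expression, so no fold is given. Nog (15.9 CPM), Chrd (3.79 CPM), Bmp6 (4.85 CPM) and Id4 (86.0 CPM) were highest in the neuronal class, where mesenchyme had 1.51, 1.20, 0.292 and 7.55 CPM. Tgfbr2 was at 8.85 CPM in glia, 5.53 CPM in mesenchyme and 0.422 CPM in the neuronal class, whereas its type I partner Tgfbr1 was at 42.9, 61.0 and 70.2 CPM. Skil, a nuclear co-repressor of Smads, was at 86.4 CPM in the neuronal class and 45.9 and 38.2 CPM in mesenchyme and glia. Smad2 lay between 46.2 and 47.7 CPM in the 3 classes. These glia levels cover the whole class with its neuronal transcripts. In the control glia with more glial than neuronal marker UMIs Tgfbr2 was at 13.3 CPM, Tgfbr1 at 44.4, Skil at 33.0 and Smad2 at 49.8. Inhbb, a subunit of activin B, was the sparsest gene, with 14 and 27 UMIs over all cells.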

How the data were processed

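Sorted GFP-positive cells of 1 control and 1 mutant pool were profiled by droplet 3′ single-cell RNA-seq. The authors deposited raw UMI counts per gene and cell, made with bcl2fastq and Cell Ranger (6.0.0 in the file header) on mm10, and Seurat 4.3.0 is named in the submitters' processing notes. The strand setting of the counting is not given in the sources used here, which leaves members that share bases with a gene on the other strand uncertain. Kept cells had 200 to 7500 genes detected and at most 10% of UMIs from mitochondrial genes, which dropped barcodes (523 control and 476 mutant barcodes). Cells were integrated and clustered in R 4.3.3 with Seurat 5.3.0, on 2000 variable genes without the 52 genes. Also left out were Tfap2a, Tfap2b, haemoglobin genes, Xist, Tsix and Y-linked genes. Several genes that the study reported as reduced or raised, Msx1, Pax3 and Pax7 among them, were left out as well. Doublets were called with Scrublet in scanpy 1.11.5 and kept (1.65% of control and 3.06% of mutant cells). Neurons and brain progenitors formed 1 class at the resolution used. Cluster names came from marker lists, some marker genes are not reported here, and the finer mesenchyme clustering (resolution 0.5) was chosen for the description after the clusters were seen. The members and lists were chosen with earlier results of these data known.

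Counts were summed per library and class or cluster with Python 3.11.15 and pandas 2.3.3, and scaled to 1e+06. Ratios have exact conditional binomial and levels exact Poisson 95% intervals (scipy 1.17.1), which cover counting error only, since cells of 1 library are not replicates. A gene counted as apart at 1.5-fold, or at a looser log2 ratio of 0.32, with at least 100 UMIs over both libraries. In summed counts, fewer expressing cells and less RNA per cell cannot be told apart. A capture of 3′ ends gives 1 tag per transcript, and each gene was compared with itself across libraries and clusters. Values in full were given for genes past the looser threshold in mesenchyme, genes past 1.5-fold in another class or in a mesenchyme cluster with 100 UMIs, the Id genes, and the 2 genes of widest range between control classes in each role, while values in neuronal clusters or with fewer UMIs were chosen after they were seen. Alternatives were TMM scaling (edgeR 4.0.16), equal weight per cell, thinning to 5000 UMIs, other minimums, other clusterings, fixed cluster shares and leaving out doublets. The ratio code was tested on simulated data.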

Additional observations from a re-analysis of the deposited data

Results flagged for a closer look

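Chrd had a log2 ratio of 0.47 in mesenchyme and -0.57 in the neuronal class. Fst had a log2 ratio of -0.34 in mesenchyme and 1.17 in the glia class. With 1 library per genotype these opposite directions were not tested. A Y-linked UMI was found in 82.0% of mutant and 0.0356% of control cells, outside the genes described above, and sex and genotype cannot be told apart in these libraries.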

How the results depend on the processing

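No paired analysis was possible because each genotype had 1 library and no replicate numbers. Over 156 results, 1129 values were recomputed under other settings, of which 1062 moved by less than their counting interval, 62 moved further and 5 changed sign. With the minimum counted after thinning to 5000 UMIs, a setting chosen after the data were seen, 1 gene in place of 3 was 1.5-fold apart in mesenchyme and 6 in place of 10 passed the log2 ratio of 0.32, among 44 genes with enough UMIs. The share of all genes called under that thinned rule is not given here, so these counts have no background beside them. The sign changed for Nbl1 in the neuronal class without the doublet-rich cluster (0.23), for Smad1 in glia among cells with more glial than neuronal marker UMIs (0.21), for Id4 in the Tfap2d/Neurod4 cluster with equal weight per cell (-0.12) and after thinning (-0.25), and for Id3 in the excitatory-like cluster without called doublets (-0.36). Of these, the fewer UMIs left by thinning follow from its construction, and for the rest the cause was not tested. Across settings the median ratio of the 52 genes in mesenchyme lay between -0.05 and -0.00. Depth limits the genes with fewer than 100 UMIs, which were 4 in mesenchyme, 12 in the neuronal class and 27 in glia.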
